A study of Mus musculus with 6 samples.

Results

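The primary granule genes of myeloid progenitors were followed in RNA-seq of mouse T cells that had been cocultured with control or DB2313-treated cells. The genes were the 6 rows of the deposited count table named Mpo, Elane, Prtn3, Ctsg, Ms4a3 and Prss57, out of 54532 genes listed. They were picked with the difference between the groups already known, so their values in that comparison are given as a description without a test. All 6 passed the filter on low counts, as did 14883 genes in all.

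Neutrophils are built in the bone marrow in steps, and each step fills its own kind of granule. Primary granules, also called azurophil granules, are made by promyelocytes, which stand between the granulocyte–monocyte progenitor and the maturing neutrophil. They hold myeloperoxidase and a set of serine proteases, and the genes for these proteins are shut off before the secondary granules are filled. Mature neutrophils, macrophages and T cells make little of these transcripts. The transcription factor Spi1, also called PU.1, acts together with C/EBP, Myb and Runx factors on several of these genes.

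Each group held 3 libraries. The T cells were CD8T cells of mouse spleen, taken by an isolation kit, stimulated on anti-CD3/CD28 beads and then kept for 24 hr with partner cells. The partner cells received no DB2313 in the control group and 14 nM DB2313, an inhibitor of Spi1, in the DB2313 group. The labels name the partner cells as DC cells, whereas the paper names peritoneal macrophages elicited by thioglycolate, which in both groups were exposed to IFN-γ (10 ng/mL, 12 hr). No genotype, strain or age is given for the mice of these cultures, and no source used here says whether the 3 libraries of a group came from separate cultures, so the spread given below is that between libraries and may be technical.

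Library totals lay between 16611975 and 18596217 counts. Pairs of libraries of the same group differed by more than sampling noise (chi-square per gene 2.54 to 3.999), and pairs from different groups by more than that (51.8 to 56.0). The labelled cell type was present by its markers: all 20 T cell markers were counted, and all 20 passed the test as higher with DB2313, by 0.32 to 0.74 on the log2 scale, with a median of 0.59. Other cells were present by their markers as well. Of 17 tested macrophage markers, 14 fell and 3 rose, where 24.6% and 20.8% of all tested genes did. The summed level of the macrophage markers lay between 4734 and 4875 CPM in the control libraries and between 2395 and 2453 CPM with DB2313. Here CPM is the count per 1000000 counts of the TMM-scaled library. Vsig4, a receptor of resident macrophages, was at 0 counts in all 6 libraries, which allows up to 1.81e-05% of the smallest library by counting error alone. In mixed RNA of this kind, fewer cells of a type and less RNA per cell cannot be told apart.

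The bases before the RefSeq starts of these genes are shown first, because DB2313 is directed at Spi1. DB2313 was given to the partner cells, and any part of Spi1 at these promoters was not tested. Promoter windows of 250 bases before and 50 after the RefSeq start (GRCm38.p6) were found for 5 of the 6 members, Prss57 being the other. Motif distances below are from that start, which can differ from the deposited start of the gene. For each member, the bases from the far end of the window up to its first annotated exon base (GENCODE release 21) are printed. They are given 5′ to 3′ on the strand of the gene. The printed bases end 66 bases before the RefSeq start in Elane, 54 in Prtn3 and 204 in Mpo. The Prtn3 stretch lies within the deposited span of that gene, not before it. Capitals mark AGGAAGT, the letters of an ETS-type site such as Spi1 prefers.

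Elane, chr10:79886062-79886246, plus strand: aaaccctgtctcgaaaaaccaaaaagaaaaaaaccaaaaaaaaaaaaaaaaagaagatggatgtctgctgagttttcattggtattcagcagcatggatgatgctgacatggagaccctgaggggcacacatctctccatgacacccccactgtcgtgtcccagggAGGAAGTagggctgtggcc
Prtn3, chr10:79879417-79879613, plus strand: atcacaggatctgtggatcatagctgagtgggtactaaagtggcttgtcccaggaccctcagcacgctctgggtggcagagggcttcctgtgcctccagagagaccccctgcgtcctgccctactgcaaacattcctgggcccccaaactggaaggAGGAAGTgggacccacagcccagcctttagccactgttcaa
Mpo, chr11:87793534-87793580, plus strand: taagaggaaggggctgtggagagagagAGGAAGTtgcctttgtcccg
Ctsg, chr14:56102575-56102824, minus strand: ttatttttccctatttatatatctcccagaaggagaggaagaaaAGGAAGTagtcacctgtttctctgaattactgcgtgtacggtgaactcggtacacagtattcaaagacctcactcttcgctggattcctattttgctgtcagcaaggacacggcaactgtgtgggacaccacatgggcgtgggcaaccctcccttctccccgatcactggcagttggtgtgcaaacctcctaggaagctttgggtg
Ms4a3, chr19:11640852-11641101, minus strand: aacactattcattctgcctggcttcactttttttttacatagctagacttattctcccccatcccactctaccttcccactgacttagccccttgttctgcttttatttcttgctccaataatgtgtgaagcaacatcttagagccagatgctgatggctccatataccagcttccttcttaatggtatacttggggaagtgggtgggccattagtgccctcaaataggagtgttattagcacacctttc

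AGGAAGT was searched on either strand of the whole 300-base window, and it occurred in 4 of the 5 members and in 9.35% of all 32851 windows of this length. In each of the 4 it ran in the direction of the gene. It began 84 bases before the RefSeq start in Elane and 94 in Prtn3, the neighbouring pair on chromosome 10. In Mpo it began 223 bases before the RefSeq start and in Ctsg 206. Ms4a3 held no exact match, although its printed bases include GGGAAGT, which differs in the first letter. Near matches were not searched for.
Of the MYB-type letters, AACGG occurred in Elane and Prtn3, at 50 and 55 bases before the start and within annotated exons, and in 17.4% of all windows. AACTG occurred in Mpo, Prtn3 and Ctsg and in 44.8% of all windows. The RUNX-type letters TGTGGT occurred in Ctsg (16.8% of all windows), and the C/EBP-type letters TTGCNNAA, where N is any base, occurred after the start in Ms4a3 (10.8% of all windows). No match of these motifs overlapped a match of another. The motifs were chosen after the sequences had been read, and a match of letters is not a bound site.

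Each of the 6 genes was higher in every DB2313 library than in every control library. In this direction the groups did not overlap in 25.6% of all tested genes, against 27.5% in the other direction, and since the genes were picked on this comparison nothing is read from the count of 6. The fitted log2 fold changes ran from 0.52 in Ms4a3 to 1.20 in Prss57, with a median of 0.95, beside a median of 0.019 over all tested genes. Elane and Prss57 had log2 fold changes above 1. Of all tested genes, 1.37% were above 1 with an adjusted p under 0.05 from edgeR.

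Mpo (ENSMUSG00000009350, chromosome 11 of GRCm38 from 87793581 to 87804413, plus strand) encodes myeloperoxidase, the heme enzyme that makes hypochlorous acid and the most abundant protein of the primary granule. It was at 155, 145 and 146 CPM in the control libraries and at 282, 287 and 295 CPM with DB2313. The means were 148.5 ± 5.66 and 287.8 ± 6.44 CPM (SD, n = 3 each), a log2 fold change of 0.95 (standard error 0.037). The replicates of each group lay close together, and the gap between the groups was many times their spread.
Elane (ENSMUSG00000020125, chromosome 10 from 79886247 to 79888215, plus strand) encodes neutrophil elastase. It was at 94.5, 100.5 and 101.8 CPM in the control libraries and at 221, 218 and 211 CPM with DB2313. The group means of 99.0 ± 3.92 and 216.5 ± 4.95 CPM (SD, n = 3 each) lay far apart. The log2 fold change of 1.13 (standard error 0.039) was the largest among the 5 well-counted members.
Prtn3 (ENSMUSG00000057729, chromosome 10 from 79874476 to 79883174, plus strand) encodes proteinase 3, a close relative of elastase. It was at 98.4, 102 and 107 CPM in the control libraries and at 204, 201 and 187 CPM with DB2313, a log2 fold change of 0.94 (standard error 0.043). The lowest DB2313 library still lay well above the highest control library.
Ctsg (ENSMUSG00000040314, chromosome 14 from 56099881 to 56102574, minus strand) encodes cathepsin G, a serine protease of the same granule. It was at 108, 102 and 115 CPM in the control libraries and at 209, 204 and 199 CPM with DB2313, a log2 fold change of 0.92 (standard error 0.042), close to that of Prtn3.
Ms4a3 (ENSMUSG00000024681, chromosome 19 from 11629496 to 11640851, minus strand) encodes a four-span membrane protein that marks granulocyte–monocyte progenitors. It was at 46.8, 46.8 and 49.6 CPM in the control libraries and at 65.7, 69.7 and 69.8 CPM with DB2313. Its log2 fold change of 0.52 (standard error 0.055) was the smallest of the 6.
Prss57 (ENSMUSG00000020323, chromosome 10 from 79781474 to 79790961, minus strand) encodes neutrophil serine protease 4. It was the least counted member, with 81 to 87 counts in a control library and 183 to 247 with DB2313. Its levels were 4.49, 5.06 and 5.31 CPM in the control libraries and 13.4, 10.7 and 10.1 CPM with DB2313. DB2313 replicate 1 stood above the other 2, and without it the log2 fold change of 1.20 (standard error 0.15) became 1.07.

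**Figure D1:**
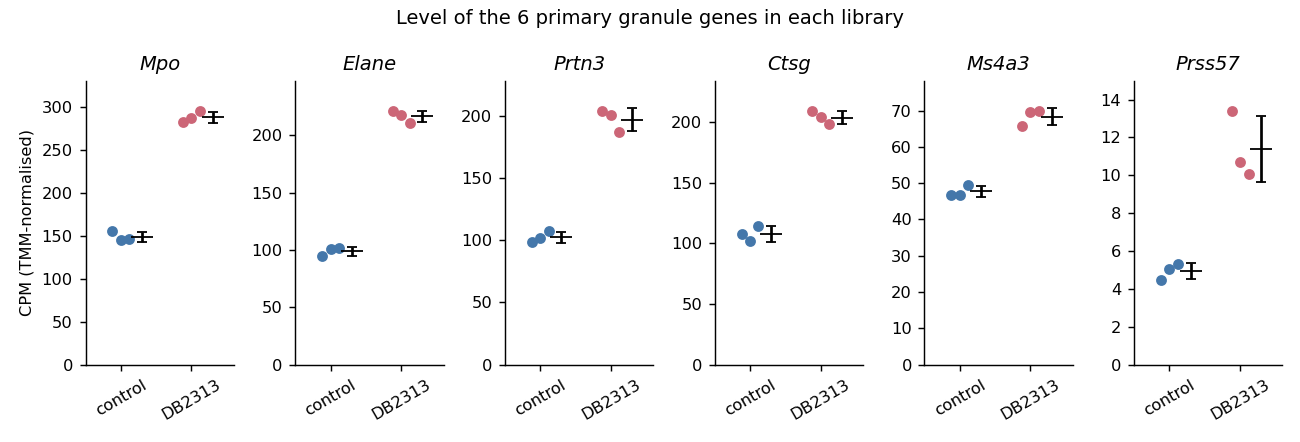
Level of each primary granule gene in CPM (vertical axes from 0, a scale for each gene) in the 3 control and 3 DB2313 libraries. Points are libraries, and the bar with whiskers is the mean ± SD. In each gene the 3 DB2313 points lie above the 3 control points, from 282 to 295 against 145 to 155 CPM in Mpo, and the widest spread is that of Prss57 with DB2313.

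Levels were set against each other per kilobase of the deposited gene length. That length was 1732 bases in Prtn3, 984 in Elane and 1033 in Ctsg. In CPM their control means were 102.6, 99.0 and 107.9, so the distance of Prtn3 from Elane and Ctsg below rests on these lengths. In the control group the order was Ctsg at 104.5 ± 6.22, Elane at 100.6 ± 3.98, Prtn3 at 59.2 ± 2.56, Mpo at 43.4 ± 1.65, Ms4a3 at 25.3 ± 0.857 and Prss57 at 1.74 ± 0.149 CPM per kilobase (SD, n = 3 each). Ctsg and Elane did not differ beyond their spread, since the control libraries of Ctsg ran from 98.5 to 110.9 and those of Elane from 96.0 to 103.5 CPM per kilobase. With DB2313, Elane came ahead at 220.0 ± 5.03 CPM per kilobase, and its lowest library, at 214.6, was above the highest of Ctsg, at 202.3, whose mean was 197.4 ± 4.95. Prtn3 at 113.9 ± 5.24, Mpo at 84.1 ± 1.88, Ms4a3 at 36.3 ± 1.25 and Prss57 at 4.004 ± 0.617 CPM per kilobase followed in the same order as in the control group (SD, n = 3 each). The level of Prss57 per kilobase stayed far below those of the other 3 proteases in both groups.
The mix of the 6 transcripts shifted little. Mpo took 29.1% ± 1.40 of the counts of the 6 genes in the control group and 29.2% ± 1.02 with DB2313 (SD, n = 3 each). Elane went from 19.4% ± 0.714 to 21.97% ± 0.236, and Ms4a3 from 9.35% ± 0.111 to 6.94% ± 0.302 (SD, n = 3 each), and in both of these shares the libraries of the groups lay apart. Those of Prss57 lay apart narrowly, with at most 1.01% in a control library and at least 1.04% with DB2313. Prtn3, at 20.09% and 20.01%, and Ctsg, at 21.1% and 20.7%, differed by less than their spread.

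The sizes of these changes depended on what the libraries were scaled to. The median log2 fold change of the 6 genes was 1.04 by library size, 1.01 by upper quartiles and 0.95 by DESeq2. When libraries were scaled to the summed counts of the 20 T cell markers, the median was 0.36, beside a median of -0.56 over all tested genes. Under that scaling 5 of the 6 genes were still higher with DB2313, from 0.33 in Ctsg to 0.62 in Prss57, while Ms4a3 turned to -0.066. The summed T cell markers stood at 3862 ± 29.1 CPM in the control group and 5792 ± 19.9 CPM with DB2313 (SD, n = 3 each), and the part of this shift in the changes of the granule genes was not tested.

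**Figure D2:**
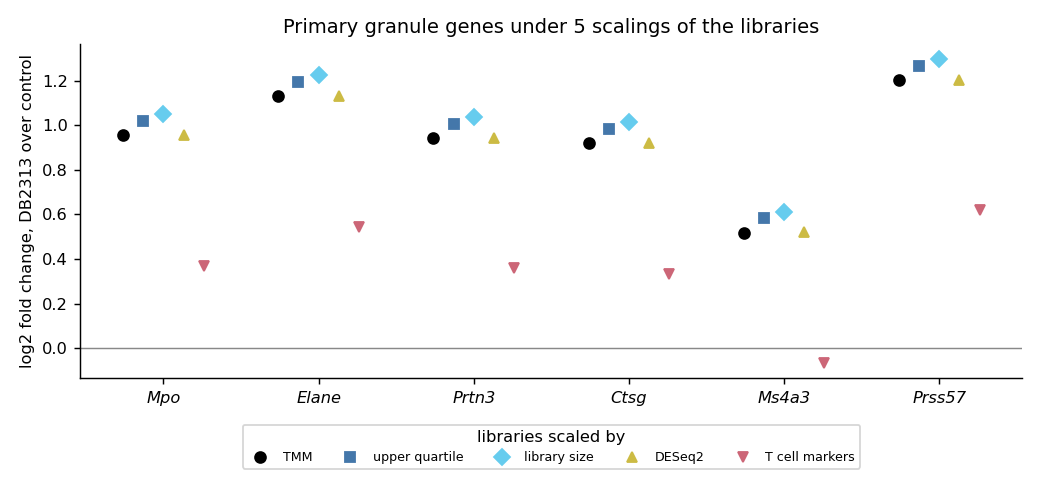
Log2 fold change (DB2313 over control) of each primary granule gene under 5 scalings of the libraries. TMM and DESeq2 give nearly equal values, and scaling to the T cell markers lowers every gene and brings Ms4a3 to -0.066.

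Genes that process, pack or restrain the granule proteases did not move with the proteases. Of 12 such genes, all tested, none passed the test as higher and 8 passed as lower, with a median log2 fold change of -0.17. Over all tested genes 20.8% passed as higher and 24.6% as lower, by an adjusted p (Benjamini-Hochberg) under 0.05 in the quasi-likelihood test of edgeR. None was higher at an unadjusted p under 0.05 or by DESeq2 (0 genes each), and with library size scaling 1 was.
Ctsc, the dipeptidyl peptidase that trims elastase, proteinase 3 and cathepsin G into active enzymes, went from 792 ± 11.1 to 357.6 ± 6.49 CPM (SD, n = 3 each), a log2 fold change of -1.15 (standard error 0.032, adjusted p = 8.51e-19 from edgeR). Slpi, a secreted inhibitor of elastase and cathepsin G, was at 72.5 ± 1.82 and 17.6 ± 0.430 CPM (SD, n = 3 each), a log2 fold change of -2.04 (adjusted p = 9.80e-18 from edgeR). Srgn, the proteoglycan on which these proteases are packed, was at 538.7 ± 8.79 and 532.3 ± 9.27 CPM (SD, n = 3 each), and Serpinb1a, a cytosolic inhibitor of the proteases, at 46.1 ± 1.39 and 46.8 ± 1.79 CPM (SD, n = 3 each). In Srgn and Serpinb1a the groups overlapped. Ctsc, Srgn and Calr are made in many cells, T cells and macrophages among them.

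Other genes known from granulocyte–monocyte progenitors mostly went the other way. Of 16 listed, 14 were tested, 2 rose and 9 fell, with a median log2 fold change of -0.35. Among all tested genes 20.8% rose and 24.6% fell. The 2 that rose were Plac8, at 161.2 ± 8.26 and 282.7 ± 13.9 CPM, and Nkg7, at 41.4 ± 2.13 and 67.5 ± 5.20 CPM (SD, n = 3 each), with log2 fold changes of 0.81 and 0.71. Both are made in lymphocytes too, and scaled to the T cell markers they were at 0.23 and 0.12.
Lyz2, the lysozyme of macrophages and neutrophils that is also stored in primary granules, fell by 1.89 on the log2 scale. Igsf6 fell by 1.45, Hk3, a hexokinase of myeloid cells, by 1.19, Irf8, the factor that steers progenitors towards monocytes, by 1.08, and Mgst1, a membrane glutathione transferase, by 1.04. Macrophages make several of these genes too, and the macrophage markers fell in the same libraries, from a summed 4805 ± 70.6 to 2418 ± 30.5 CPM (SD, n = 3 each); the part of those cells was not tested. Fcnb, a ficolin made at the stage after the promyelocyte, was at 2.52 ± 0.547 and 2.42 ± 0.447 CPM (SD, n = 3 each), with overlapping groups.

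Of 12 transcription factors known to act on granule genes or in myeloid differentiation, 5 rose, 5 fell and 2 did not pass the test. The shares of all tested genes were 20.8% risen and 24.6% fallen. Spi1 itself fell from 286.3 ± 6.75 to 155.6 ± 6.20 CPM (SD, n = 3 each), a log2 fold change of -0.88 (standard error 0.037, adjusted p = 2.58e-15 from edgeR). Cebpe, which drives the later granules, fell by 0.56 and Runx1 by 0.32 on the log2 scale.
Gfi1, a repressor needed for neutrophil formation, rose by 0.60, Myb, a factor of progenitor cells, by 0.42, and Cebpa, which opens the granulocyte programme, by 0.15. Ets1 and Lef1, which T cells make in quantity, rose by 0.49 and 0.45. The 20 T cell markers had a median of 0.59, and the part of T cells in the rises of any of these factors was not tested. Scaled to the T cell markers, Gfi1 was at 0.014 while Myb at -0.16, Cebpa at -0.44, Ets1 at -0.098 and Lef1 at -0.13 turned below 0, and no factor passed the test as higher.

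Genes of stem and progenitor cells moved unevenly. Of 11 tested, 5 rose and 2 fell (median log2 fold change 0.33), where 20.8% and 24.6% of all tested genes did. None was higher when scaled to the T cell markers. Kit, the receptor for stem cell factor, was at 74.8 ± 3.19 and 81.9 ± 1.27 CPM (SD, n = 3 each), a log2 fold change of 0.13 (standard error 0.048, adjusted p = 0.0282 from edgeR) that turned to -0.45 when scaled to the T cell markers. Cd34, a surface protein of progenitors that mast cells also carry, went from 59.3 ± 3.08 to 7.30 ± 0.382 CPM (SD, n = 3 each), a log2 fold change of -3.02. Csf3r, the receptor for granulocyte colony-stimulating factor, fell by 1.43.

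The genes of the later steps of neutrophil maturation moved against the primary granule genes. All 10 secondary granule genes fell (median log2 fold change -1.77), and 11 of 12 late neutrophil genes fell (median -1.57), each against 24.6% of all tested genes. Past a log2 fold change of -1 as well were 8 and 9 of them, where 5.30% of all tested genes were. The lists were chosen with earlier results of these data known, so these counts are a description.
Ltf, which encodes lactoferrin, went from 193.4 ± 6.81 to 46.3 ± 1.93 CPM, and Ngp from 364.7 ± 7.80 to 112.4 ± 4.89 CPM (SD, n = 3 each). Lcn2, the siderophore-binding lipocalin of these granules, fell by 2.22 on the log2 scale. The smallest falls in the list were those of Mmp8, a collagenase, at 0.28 and Chil3, a chitinase-like protein that macrophages also make, at 0.27.
Among the late genes, the log2 fold change was -3.92 in Ly6g, the surface marker of mouse neutrophils, -3.35 in Fpr1, the receptor for formyl peptides, and -2.49 in S100a8. Retnlg was the exception, at 0.294 ± 0.116 and 0.775 ± 0.267 CPM (SD, n = 3 each), and its call as higher was lost under DESeq2 and other alternatives. Csf3r stands in the list of progenitor genes as well, and Itgam, S100a8 and Lcn2 are also made by macrophages, whose markers fell in the same libraries; the part of those cells was not tested.

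**Figure D3:**
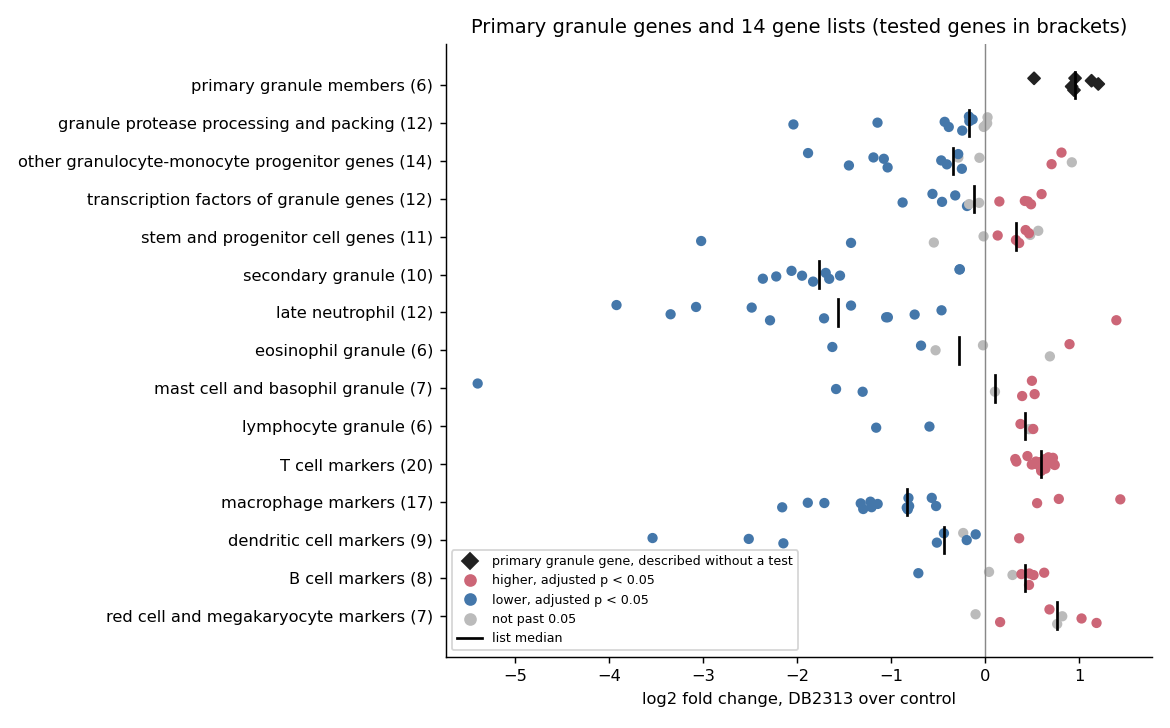
Log2 fold change (DB2313 over control) of the 6 primary granule genes and of the tested genes of 14 lists, 1 row per list, with a black bar at each median. The 6 granule genes lie between 0.52 and 1.20, the 10 secondary granule genes all lie below 0, and the 20 T cell markers lie between 0.32 and 0.74.

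Ratios within a library do not depend on how the libraries are scaled. The summed level of the 6 primary granule genes was 510.6 ± 12.1 CPM in the control group and 985.3 ± 12.4 CPM with DB2313 (SD, n = 3 each). Relative to the summed level of the 10 secondary granule genes it was 0.266 ± 0.00604 in the control group and 1.02 ± 0.0113 with DB2313 (SD, n = 3 each), or 3.83 times as high. Relative to the 12 late neutrophil genes it went from 0.309 ± 0.00874 to 1.81 ± 0.0407, and relative to the 20 macrophage markers from 0.106 ± 0.00181 to 0.407 ± 0.00495 (SD, n = 3 each). Relative to the 20 T cell markers it went from 0.132 ± 0.00254 to 0.170 ± 0.00225 (SD, n = 3 each), a factor of 1.29. In each of these ratios the libraries of the groups lay apart, and since the numerator was picked on this comparison no test is given.

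**Figure D4:**
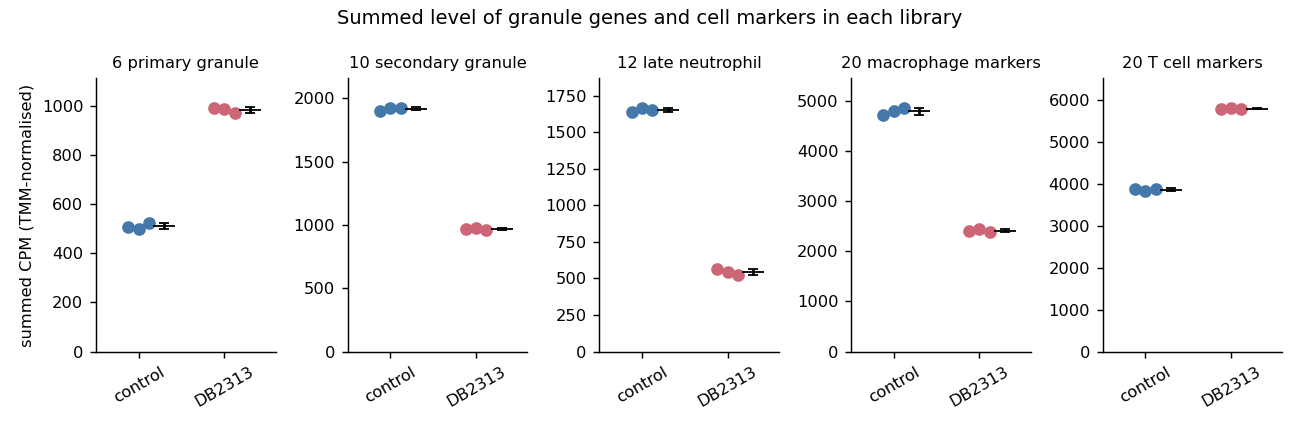
Summed level in CPM (vertical axes from 0, a scale for each panel) of the 6 primary granule genes, 10 secondary granule genes, 12 late neutrophil genes, 20 macrophage markers and 20 T cell markers. Points are the 3 libraries of each group with the mean ± SD beside them, and the primary granule genes and T cell markers are higher with DB2313 while the other 3 sums are lower.

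Granule genes of other lineages did not share a direction. Among all tested genes 20.8% rose and 24.6% fell, and nothing is read from the small counts of these lists. Of 6 tested eosinophil genes, 1 rose and 2 fell. Epx, the eosinophil peroxidase and the nearest relative of Mpo in these lists, was at 11.4 ± 2.46 and 11.3 ± 0.939 CPM (SD, n = 3 each), with overlapping groups. Of 7 tested mast cell and basophil genes, 3 rose and 3 fell. The 3 that rose were Mcpt8, Prss34 and Fcer1a. Mcpt8 was at 198.7 ± 6.68 and 285.9 ± 13.3 CPM (SD, n = 3 each), a log2 fold change of 0.52. Scaled to the T cell markers, Mcpt8 at -0.060, Prss34 at -0.19 and Fcer1a at -0.089 turned below 0. The 3 that fell were Cpa3, Tpsb2 and Cma1, and Ms4a2 did not pass the test, at a log2 fold change of 0.10. Tpsb2 fell by 5.40 on the log2 scale, with the caution that Tpsab1 is a near copy that may take or lend reads. Of 6 tested lymphocyte granule genes, Gzmb and Prf1 rose, by 0.37 and 0.51 (-0.21 and -0.074 when scaled to the T cell markers), and Gzmc and Lamp1 fell.
Markers of the red cell and megakaryocyte lines, which share progenitors with neutrophils, were also followed. Of 7 tested, 4 rose, with a median of 0.76, among them Pf4, the platelet chemokine, at 102.8 ± 6.06 and 209.0 ± 13.1 CPM, and Gata1 at 22.4 ± 0.377 and 36.0 ± 4.02 CPM (SD, n = 3 each). Of 8 B cell markers 5 rose and 1 fell, and of 9 tested dendritic cell markers 1 rose (Flt3) and 7 fell. The counts of these marker lists stand beside 20.8% of all tested genes that rose and 24.6% that fell. Scaled to the T cell markers, none of these B cell and dendritic cell markers passed the test as higher. Cd79b at -0.12, Ms4a1 at -0.12, Igkc at -0.20, Ighm at -0.072 and Flt3 at -0.22 then turned below 0, as did Itga2b at -0.43 among the 4 red cell and megakaryocyte genes that rose, while Cd79a was at 0.042. Siglech, of plasmacytoid dendritic cells, was at 0 counts in every library.

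The members lie at 4 places in the genome, which the choice of genes did not use. Elane and Prtn3 are 3073 bases apart on chromosome 10, and Prss57 lies 95286 bases from Elane. Among the 17 other tested genes within 100 kb of any of these 3, 4 rose and 4 fell. Of all tested genes 20.8% rose and 24.6% fell, so nothing is read from these counts. The log2 fold changes of the 17 lay between -0.53 and 0.63. Plppr3, whose span overlaps that of Prtn3 by 159 bases on the opposite strand, rose by 0.31 from 11.9 ± 0.310 CPM (SD, n = 3). Arid3a, a DNA-binding protein gene 38828 bases from Elane, fell by 0.53.
Of 7 tested neighbours of Mpo, Tspoap1 fell by 1.34 and Mir142hg by 0.32, Rnf43 rose by 0.38, and the other 4, Epx among them, did not pass the test. Next to Ctsg, in the cluster of granule proteases of mast cells and lymphocytes, Mcpt8 was the other tested gene, 14608 bases away, and it rose. Of 4 tested neighbours of Ms4a3, Ms4a2 and Ms4a6d did not pass the test, at 0.10 and -0.010. Oosp1, 26609 bases away, went against Ms4a3, from 2.504 ± 0.461 to 0.406 ± 0.169 CPM (SD, n = 3 each), a log2 fold change of -2.60, and Ms4a6b, 98240 bases away, rose by 0.64. Over all 29 tested neighbours, 7 rose and 7 fell, with a median of 0.10, where 20.8% and 24.6% of all tested genes did. Of the neighbours that rose only Ms4a6b, at 0.051, stayed above 0 when scaled to the T cell markers.
Prss57 overlaps Fstl3 by 1157 bases and Mpo spans Gm11505 on the opposite strand, and both of those genes were below the filter on low counts, with means of at most 0.334 CPM. The strand setting of the counting is not given in the sources used here.

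**Figure D5:**
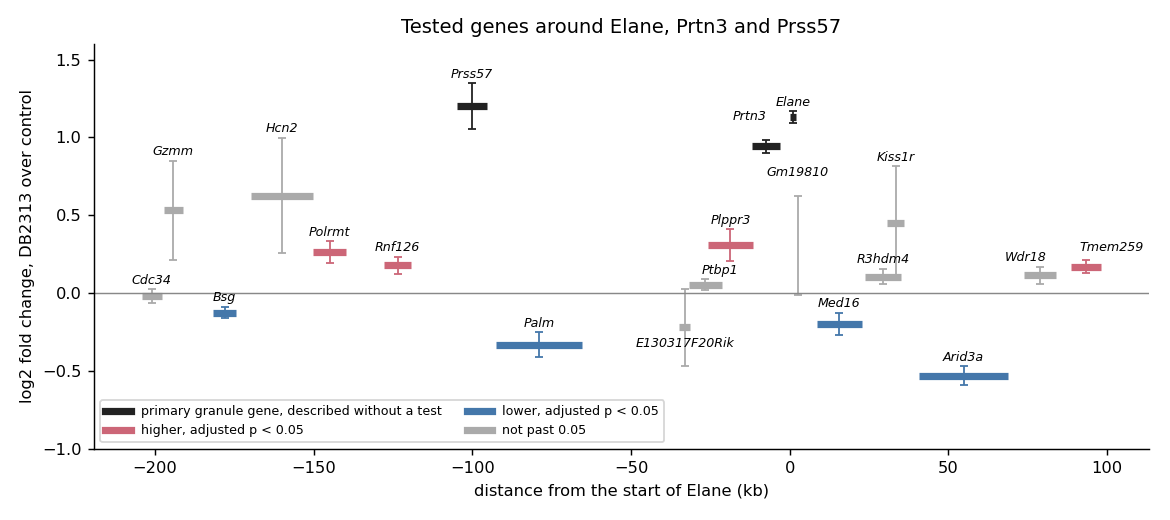
Log2 fold change (DB2313 over control, vertical axis) of Elane, Prtn3, Prss57 and 17 other tested genes by distance from the start of Elane in kb. Bars span each gene and whiskers are standard errors; the 3 granule protease genes lie above 0.9 and the other genes between -0.53 and 0.63.

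The genes outside the 6 whose levels followed theirs most closely were sought by the root mean square distance between log2(CPM + 1) values over the 6 libraries, each centred on its mean. The search covered 9329 protein-coding genes whose mean reached 10 CPM, and the nearest were Gdf15 (distance 0.042), Ifit3 (0.051), Ly6c1 (0.052), Pck2 (0.057), Pdcd1 (0.062) and Ifi208 (0.063). Prtn3 and Ctsg lay nearer to the mean profile of the 6, at 0.025 and 0.033, whereas Mpo at 0.069, Elane at 0.107, Prss57 at 0.122 and Ms4a3 at 0.21 lay farther from it than the 6 genes named here. Ifit3, an interferon-induced gene, went from 240.1 ± 7.42 to 442.4 ± 4.99 CPM, and Gdf15, a stress-induced cytokine, from 14.2 ± 1.05 to 26.7 ± 0.312 CPM (SD, n = 3 each). The 6 libraries fall into the 2 groups, so this likeness is mainly that of the size of 1 difference.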

How the data were processed

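Libraries of T cells cocultured with control or DB2313-treated cells were compared, 3 per group, grouped by their labels. The authors sequenced, aligned and counted the reads and deposited raw counts per gene. The paper names LifeScope, whereas the submitters' processing notes list CASAVA 1.8, HISAT2 2.0.5 and featureCounts 1.5.0-p3; the genome build is not given in the sources used here, but of 54409 genes also found in GENCODE mouse release 21, 98.3% carried its GRCm38 coordinates, the 6 members included.
Counts were filtered (filterByExpr), scaled by TMM and tested with edgeR 4.0.16 (glmQLFit, glmQLFTest) in R 4.3.3, with Benjamini-Hochberg adjustment over all 14883 tested genes and a threshold of 0.05. "Rose" and "fell" are used for genes past it. Each standard error was derived from the log2 fold change and its test statistic. The fits were tested on simulated data. The members and the 14 other lists were chosen with earlier results of these data known; the members entered the fit but no test of them is reported, and no list was tested as a set. Named genes were the members, listed genes, tested genes within 100 kb of a member and the 6 nearest profiles. Gene lengths were those deposited with the counts. Alternatives were DESeq2 1.42.0, 3 other scalings, 2 other filters, a replicate block, leaving out each library and a fold threshold.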

Additional observations from a re-analysis of the deposited data

How the results depend on the processing

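Over 498 alternatives to 36 results, 432 kept a count within 1.5 times its value or a log2 fold change within the spread between replicates (1 SD), 65 moved it farther and 1 reversed its sign. With library size scaling 4931 genes were higher, and with scaling to the T cell markers 178 were higher and 11498 lower. With a log2 fold change past 1 as well, 204 were higher and 789 lower. By library size the log2 fold change was 1.05 in Mpo, 1.22 in Elane, 1.04 in Prtn3, 1.01 in Ctsg and 0.61 in Ms4a3, and by upper quartiles 1.02 in Mpo, 1.19 in Elane and 0.58 in Ms4a3. Scaled to the T cell markers it was 0.37 in Mpo, 0.55 in Elane, 0.36 in Prtn3, 0.33 in Ctsg and 0.62 in Prss57, and it reversed to -0.066 in Ms4a3.
In the lists, scaling to the T cell markers left 1 other progenitor gene and 0 transcription factors, stem cell, late neutrophil, mast cell and basophil or lymphocyte granule genes higher, and made 11 transcription factors, 8 stem cell, 4 eosinophil and 5 mast cell and basophil genes lower. With the fold threshold, 0 genes of the other progenitor, transcription factor, stem cell, eosinophil, mast cell and basophil and lymphocyte granule lists were higher, and 2 processing, 5 other progenitor, 0 transcription factor, 1 eosinophil and 1 lymphocyte granule gene were lower. Among the marker lists, scaling to the T cell markers left 0 B cell, 0 dendritic cell, 1 macrophage and 1 red cell and megakaryocyte gene higher, and the fold threshold left 0 T cell, 0 B cell and 0 dendritic cell, 1 macrophage and 2 red cell and megakaryocyte genes higher and 8 macrophage and 3 dendritic cell genes lower. Library size scaling made 1 processing gene and 2 eosinophil genes higher, and upper quartile scaling 2 eosinophil genes. Retnlg, the late neutrophil gene called higher, was lost with DESeq2, without a filter and with at least 10 counts in every library (0 genes). The causes of these changes were not tested.
Leaving out 1 library gave 2558 to 2894 genes higher and 3279 to 3516 lower, 0 to 1 late neutrophil genes higher (0 when control replicate 1, DB2313 replicate 1 or control replicate 2 was absent) and 1 to 2 eosinophil genes higher (2 without DB2313 replicate 3). The members' log2 fold changes stayed above 0 each time, from 0.50 in Ms4a3 to 1.29 in Prss57.
Deviations of control and DB2313 replicates of the same number correlated at -0.0059, -0.018 and -0.11 over 9666 genes. For replicates of unlike number the correlations lay between -0.087 and 0.11. Taken from means of 3 libraries, these values cannot show whether a control and a DB2313 library shared a culture. With the replicate number as a block 2912 genes were higher and 3525 lower, and the log2 fold changes of the members ran from 0.52 in Ms4a3 to 1.20 in Prss57.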
